A study of Homo sapiens with 8 samples.

Results

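A set of 10 mRNAs classed as 5′ terminal oligopyrimidine mRNAs, but not encoding ribosomal proteins, was followed in ribosome footprints of HAP1 cells. They were chosen by gene ID as PABPC1 (ENSG00000070756), NPM1 (ENSG00000181163), RACK1 (ENSG00000204628), NACA (ENSG00000196531), BTF3 (ENSG00000145741), HNRNPA1 (ENSG00000135486), EIF4B (ENSG00000063046), EIF3E (ENSG00000104408), EIF3H (ENSG00000147677) and EIF3L (ENSG00000100129), which makes 10 of the 19580 transcripts listed. All 10 were found, each as 1 transcript, and all 10 were among the 11920 transcripts with a mean of at least 1 RPKM that were tested. RPKM counts footprint reads relative to transcript length and to the size of the library. HAP1 is an adherent, near-haploid human line that descends from chronic myeloid leukaemia cells. The 4 groups were RNF14 knockout cells at 30 min of recovery, RNF14 knockout cells at 0 min, wild-type (WT) cells at 30 min and WT cells at 0 min, with 2 biological replicates each. Every group, WT cells included, had grown for 18 h with the uridine analogue 4-thiouridine (4SU) at 5 uM and then received UVA light at 6 kJ/m2, which crosslinks 4SU-containing RNA to bound protein, so no group shows untreated cells. The ubiquitin ligase RNF14 acts on proteins in stalled ribosomes, and the design asks how footprints change in recovery and whether that depends on RNF14. Whether the knockout is 1 clone is not given in the sources used here.

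A terminal oligopyrimidine (TOP) mRNA begins at its cap with a C that is followed by an unbroken run of pyrimidines. Most encode ribosomal proteins and other parts of the translation machinery, and their translation is known to rise and fall together with mTORC1 signalling. When mTORC1 is inactive, the RNA-binding protein LARP1 holds the cap and the tract and keeps these mRNAs off polysomes. The mRNAs followed here encode a scaffold protein of the small ribosomal subunit, both subunits of the nascent polypeptide-associated complex, a pair of nuclear RNA-binding or chaperone proteins and 5 factors of translation initiation.

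The tract that defines the group is shown at the annotated transcription starts in RefSeq (GRCh38.p14), from 10 bases before the start to 20 bases from it. Capitals mark the unbroken pyrimidine run that begins with a C at the first transcribed base and holds at least 4 further pyrimidines.
RACK1: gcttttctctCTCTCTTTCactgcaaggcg
NACA: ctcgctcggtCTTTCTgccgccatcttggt
BTF3: cttccggcctCCCTTTagctgccatcttgc
NPM1: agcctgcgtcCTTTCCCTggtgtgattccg
EIF4B: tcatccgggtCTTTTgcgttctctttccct

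The windows lie at chr5:181243887-181243916 on the minus strand for RACK1, chr12:56725280-56725309 on the minus strand for NACA, and chr5:73498432-73498461 on the plus strand for BTF3. That of NPM1 is chr5:171387839-171387868 and that of EIF4B chr12:53006446-53006475, both on the plus strand. Each window spans the end of the promoter and the first bases of the transcript. RACK1 had the longest of these runs, with 9 pyrimidines, followed by NPM1 with 8, NACA and BTF3 with 6 each and EIF4B with 5. NPM1 has another annotated start, whose window (chr5:171387106-171387135) holds no such run at its first base. Searched on the transcribed strand only, a C followed by 4 pyrimidines stood at the first base in 4.07% of 35116 annotated starts. Which start the listed transcripts used in these cells was not measured. PABPC1, EIF3E and EIF3H lie on chromosome 8, HNRNPA1 on chromosome 12 and EIF3L on chromosome 22, and no start is shown for them.

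Libraries held between 323946 recovered reads, for knockout at 30 min replicate 1, and 1241975, for knockout at 0 min replicate 1. Each of the 4 libraries taken at 30 min was shallower than each taken at 0 min, and depth and recovery time cannot be told apart. Pearson's r of replicates over the tested transcripts was lowest for the knockout at 30 min, with 0.90, and highest for the knockout at 0 min, with 0.97. Since the listed IDs could not be paired with gene names beyond the members, RNF14 footprints and markers of the line were not checked. A footprint value cannot separate more mRNA from more ribosomes on each mRNA, nor fewer cells from less RNA per cell.

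The 10 mRNAs together took a larger share of all reads after recovery, with or without RNF14. The share was 0.306% and 0.326% in the knockout at 30 min, against 0.246% and 0.259% in the knockout at 0 min. In WT cells it was 0.352% and 0.349% at 30 min, against 0.232% and 0.205% at 0 min. No library at 30 min lay as low as any at 0 min. At 0 min both knockout libraries lay above both WT libraries, while at 30 min both lay below. No p-value is given for this sum, because the members were chosen with results of these data known. RACK1 alone supplied 6266 of the members' 15948 reads over the 8 libraries, so it weighs most in the sum. Without RACK1 the share was 0.183% and 0.186% in the knockout at 30 min, against 0.143% and 0.161% in the knockout at 0 min, and in WT cells 0.209% and 0.210% at 30 min, against 0.152% and 0.131% at 0 min. The rise with time and the lower knockout share at 30 min remained without RACK1, but at 0 min the genotypes then overlapped. They also overlapped at 0 min in the mean of the members' centred log2 levels, which weights all 10 equally, with -0.31 and -0.15 in the knockout and -0.045 and -0.35 in WT cells.

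**Figure D1:**
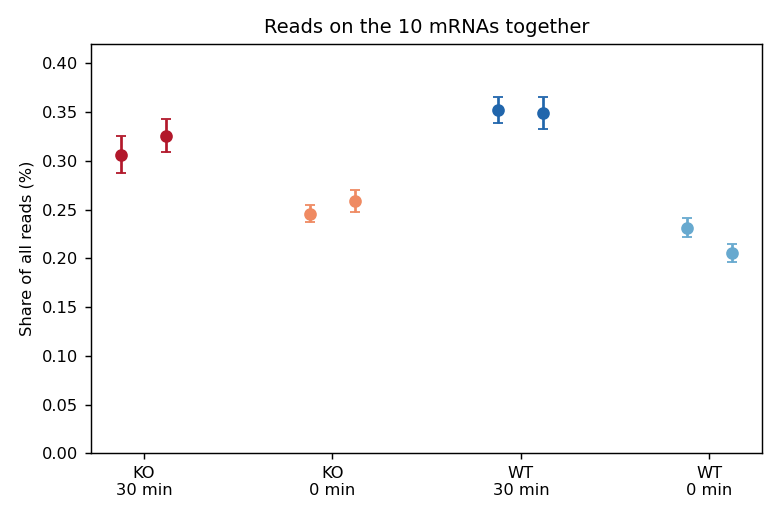
Share of all recovered reads (percent, axis from 0) that fell on the 10 mRNAs, 1 point per library, with exact 95% binomial (Clopper-Pearson) intervals that cover counting error only. The points at 30 min lie between 0.306% and 0.352%, and those at 0 min between 0.205% and 0.259%.

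Levels per length differed widely among the members. Over the 8 libraries RACK1 had a median of 992 RPKM (649 to 1256) and BTF3 of 389 RPKM (277 to 478), and each lay above the next gene in that order in 8 of 8 libraries. NACA (median 152 RPKM), NPM1 (125 RPKM) and EIF3E (128 RPKM) did not separate. NACA exceeded NPM1 in 5 of 8 libraries, and NPM1 exceeded EIF3E in 4 of 8. PABPC1 (54.3 RPKM), EIF3H (50.2 RPKM) and EIF3L (49.7 RPKM) likewise changed places from library to library. HNRNPA1 (26.3 RPKM) lay below EIF3L in 7 of 8 libraries, and EIF4B was lowest with 6.70 RPKM (5.22 to 11.6). EIF4B rested on 8 to 40 reads a library, whereas RACK1 had 398 to 1283. These levels are set against the length of the transcript that the table lists, from 897 nt for BTF3 to 4121 nt for HNRNPA1, so the order depends on that choice.

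Reads of near-identical copies may be shared for several members, as the handling of multiply mapped reads is not given in the sources used here. RefSeq lists 75 numbered pseudogenes of HNRNPA1, 50 of NPM1, 16 of BTF3, 13 of PABPC1, 9 of EIF4B and 7 of NACA, against 3 of RACK1 and 0 of EIF3H. How far such copies touch the levels of HNRNPA1 and NPM1, which have the most of them, was not tested.

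**Figure D2:**
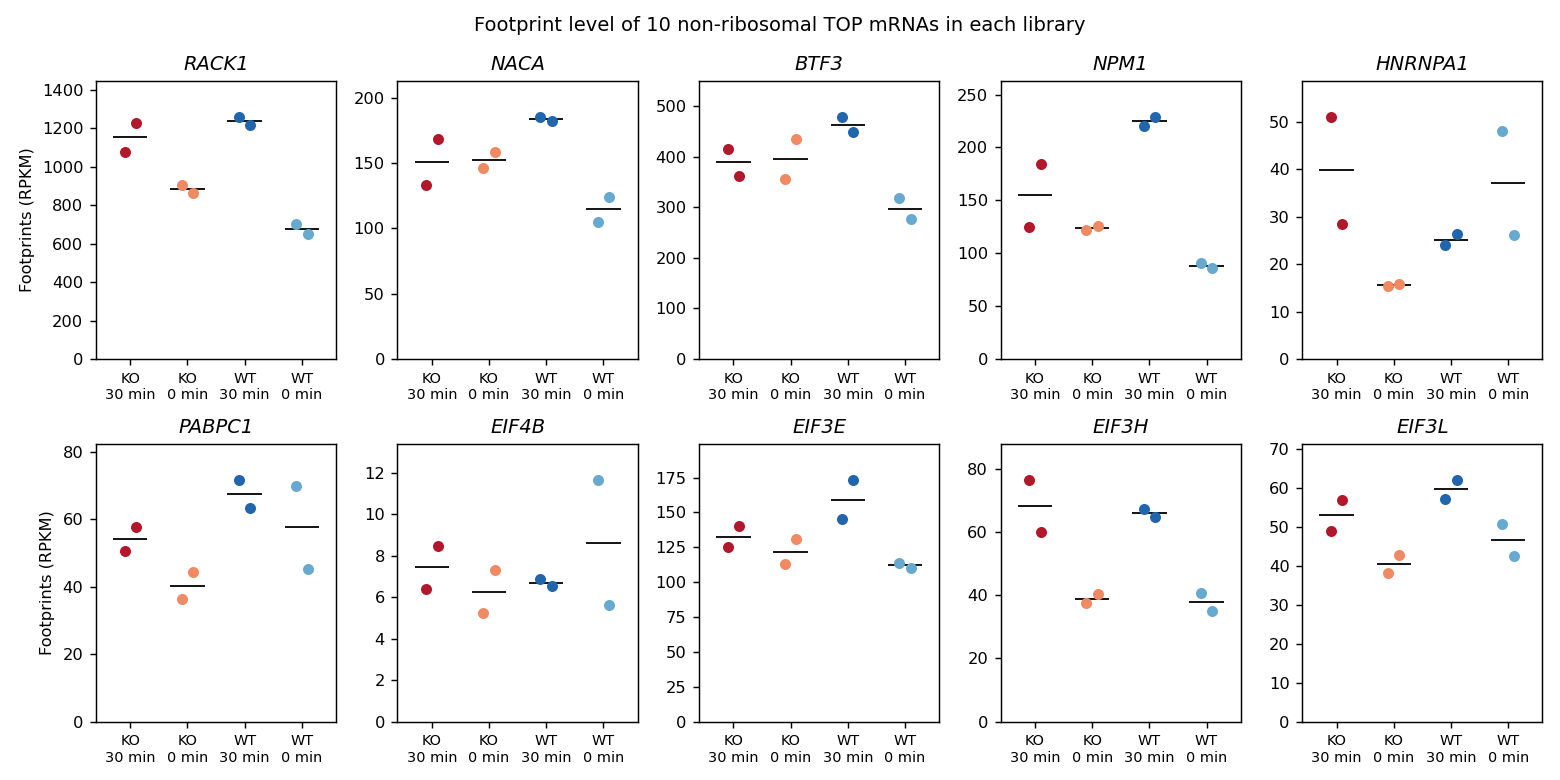
Footprint level (RPKM, each axis from 0) of the 10 mRNAs in every library. Points are single libraries, black lines the means of 2 replicates, and groups run from knockout at 30 min and 0 min to WT at 30 min and 0 min. NPM1 in WT cells stands at 221 and 229 RPKM at 30 min and at 90.8 and 85.7 RPKM at 0 min.

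RACK1 is a WD-repeat scaffold on the small ribosomal subunit, near the mRNA exit, and is needed by quality control of collided ribosomes. It had 1078 and 1228 RPKM in the knockout at 30 min, against 906 and 861 RPKM in the knockout at 0 min. In WT cells it had 1256 and 1218 RPKM at 30 min, against 703 and 649 RPKM at 0 min. The lowest value at 30 min thus exceeded the highest at 0 min. Across all tested transcripts 3.17% were separated in that way over both genotypes, and among the 10 members 2 were, RACK1 and EIF3H. In WT cells RACK1 rose by 0.87 on the log2 scale (SE 0.13, limma adjusted p = 0.00569). In the knockout the log2 change was 0.38 (SE 0.13), which did not pass (limma adjusted p = 0.151). Averaged over genotypes RACK1 rose by 0.63 (SE 0.09, limma adjusted p = 0.00345).

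NACA and BTF3 encode the alpha and beta subunits of the nascent polypeptide-associated complex, which binds emerging chains at the ribosomal exit tunnel. BTF3 had 416 and 362 RPKM in the knockout at 30 min, against 355 and 435 RPKM in the knockout at 0 min, and these libraries overlapped. In WT cells BTF3 had 478 and 449 RPKM at 30 min, against 318 and 277 RPKM at 0 min, without overlap. NACA had 133 and 168 RPKM in the knockout at 30 min, against 146 and 158 RPKM in the knockout at 0 min, again with overlap. In WT cells NACA had 185 and 182 RPKM at 30 min, against 105 and 124 RPKM at 0 min. Both subunits were thus separated by time in WT cells and not in the knockout. The log2 changes in the knockout were -0.02 for NACA (SE 0.18) and -0.02 for BTF3 (SE 0.16). In WT cells they were 0.68 for NACA (SE 0.18, limma adjusted p = 0.0684) and 0.64 for BTF3 (SE 0.16, limma adjusted p = 0.0587), just short of the threshold of 0.05. BTF3 and NACA footprints per length stood in a ratio of 2.15 to 3.13 over the 8 libraries, and the range of that ratio at 30 min covered that at 0 min.

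NPM1, a nucleolar histone chaperone that takes part in ribosome assembly, showed the largest positive change of the members in WT cells. It had 125 and 185 RPKM in the knockout at 30 min, against 122 and 126 RPKM in the knockout at 0 min. In WT cells it had 221 and 229 RPKM at 30 min, against 90.8 and 85.7 RPKM at 0 min. The libraries of the knockout overlapped and those of WT cells lay far apart. NPM1 rose in WT cells by 1.34 on the log2 scale (SE 0.20, limma adjusted p = 0.00654), which placed it 116th from the top of the 11920 tested transcripts. The ratio of its read shares in WT cells was 2.54, with an exact 95% counting interval from 2.13 to 3.04. In the knockout the log2 change was 0.29 (SE 0.20, limma adjusted p = 0.481). It lay between 0.0091 and 0.57 there when 1 library was left out, the lowest without knockout at 30 min replicate 2 and the highest without replicate 1. Averaged over genotypes NPM1 rose by 0.81 (SE 0.14, limma adjusted p = 0.00935).

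HNRNPA1, a shuttling RNA-binding protein that acts in splicing, did not follow most of the others. It had 50.9 and 28.5 RPKM in the knockout at 30 min, against 15.4 and 15.9 RPKM in the knockout at 0 min. In WT cells it had 24.0 and 26.3 RPKM at 30 min, against 48.0 and 26.2 RPKM at 0 min. The knockout at 0 min lay below all other libraries, and 1 library, WT at 0 min replicate 1, and another, knockout at 30 min replicate 1, stood about equally high. The log2 change was 1.23 in the knockout (SE 0.34, limma adjusted p = 0.0900) and -0.48 in WT cells (SE 0.34, limma adjusted p = 0.446), and neither passed. The WT value rested on the high library, as it was -0.059 without WT at 0 min replicate 1 and -0.91 without replicate 2. The change in the knockout was 0.83 without knockout at 30 min replicate 1, its high library, and 1.64 without replicate 2. With limma voom, a model of the recovered reads, the change in the knockout passed (adjusted p = 0.00588). Its Pearson's r with the mean of the other 9 members over the 8 libraries was 0.13, the lowest of the 10. EIF4B was close to it with 0.18, where EIF3L had 0.92.

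PABPC1 is the main cytoplasmic poly(A)-binding protein and links the mRNA's tail to the cap-binding complex. It had 50.6 and 57.9 RPKM in the knockout at 30 min, against 36.4 and 44.3 RPKM in the knockout at 0 min. In WT cells it had 71.7 and 63.5 RPKM at 30 min, against 69.9 and 45.4 RPKM at 0 min. The libraries were separated by time in the knockout and not in WT cells, yet neither log2 change passed, at 0.42 in the knockout (SE 0.24, limma adjusted p = 0.394) and 0.26 in WT cells (SE 0.24, limma adjusted p = 0.588). The WT value was 0.56 without WT at 0 min replicate 1 and -0.049 without replicate 2.

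EIF4B stimulates the helicase eIF4A, which unwinds the 5′ end of mRNAs. It had 6.40 and 8.47 RPKM in the knockout at 30 min, against 5.22 and 7.33 RPKM in the knockout at 0 min. In WT cells it had 6.86 and 6.53 RPKM at 30 min, against 11.6 and 5.60 RPKM at 0 min. All 4 groups overlapped, and with 23 and 47 reads in the knockout groups the ratio of read shares, 1.26, had an exact 95% counting interval from 0.732 to 2.12. That interval includes both a fall and a rise, so neither was shown. The log2 changes of EIF4B were 0.22 in the knockout (SE 0.38) and -0.25 in WT cells (SE 0.38). With 1 library left out they lay between 0.0081 and 0.43 in the knockout and between -0.72 and 0.22 in WT cells.

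EIF3E, EIF3H and EIF3L are subunits of eIF3, the largest initiation factor, which binds the small ribosomal subunit and helps to bring it to the mRNA. EIF3H had 76.4 and 59.9 RPKM in the knockout at 30 min, against 37.4 and 40.2 RPKM in the knockout at 0 min. In WT cells EIF3H had 67.2 and 64.5 RPKM at 30 min, against 40.5 and 35.1 RPKM at 0 min. It was the member with the most even recovery in the 2 genotypes, with a log2 change of 0.79 in both (SE 0.21 in each). Neither passed alone, with limma adjusted p of 0.0837 in the knockout and 0.0706 in WT cells, but averaged over genotypes EIF3H rose by 0.79 (SE 0.15, limma adjusted p = 0.0136).

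EIF3E had 125 and 141 RPKM in the knockout at 30 min, against 113 and 131 RPKM in the knockout at 0 min, with overlap. In WT cells EIF3E had 145 and 173 RPKM at 30 min, against 114 and 111 RPKM at 0 min, without overlap. EIF3L had 48.9 and 56.8 RPKM in the knockout at 30 min, against 38.0 and 42.7 RPKM in the knockout at 0 min. In WT cells EIF3L had 57.1 and 61.9 RPKM at 30 min, against 50.6 and 42.5 RPKM at 0 min. EIF3L was thus separated by time in both genotypes, as EIF3H was. The log2 changes did not pass for EIF3E, at 0.12 in the knockout (SE 0.18) and 0.50 in WT cells (SE 0.18, limma adjusted p = 0.150). Nor did they for EIF3L, at 0.38 in the knockout (SE 0.21) and 0.35 in WT cells (SE 0.21). EIF3E in the knockout lay between 0.018 and 0.23 with 1 library left out, and EIF3L in WT cells was 0.23 without WT at 0 min replicate 2 and 0.059 with TPM scaling.

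**Figure D3:**
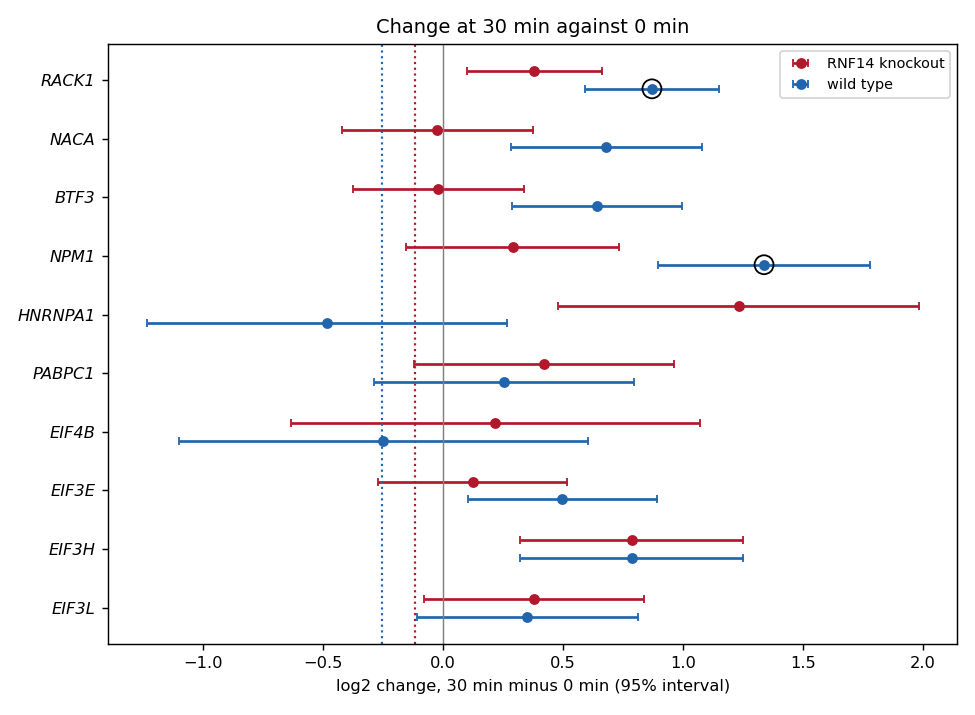
Fitted log2 change at 30 min against 0 min of each mRNA, with 95% intervals from limma, in the knockout (upper point) and in WT cells (lower point). Ringed points passed an adjusted p of 0.05, and dotted lines mark the median of all tested transcripts, -0.12 in the knockout and -0.26 in WT cells. RACK1 and NPM1 are ringed in WT cells.

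Counted together, 0 of the 10 members passed in the knockout (limma-trend, adjusted p under 0.05), where 0.646% of all tested transcripts rose and 1.33% fell. At an unadjusted p under 0.05, 3 members were higher in the knockout at 30 min, against 5.23% of all transcripts, and 0 lower, against 13.2%. The voom model called 2 there as higher, HNRNPA1 and EIF3H, where 154 of 11920 tested transcripts rose and 247 fell. In WT cells 2 of 10 rose and 0 fell, where 1.79% of all tested transcripts rose and 1.44% fell. At an unadjusted p under 0.05, 6 were higher there, against 5.82% of all, and 0 lower, against 15.1%. Averaged over genotypes 3 of 10 rose and 0 fell, where 2.45% rose and 5.34% fell. By unadjusted p 7 members were higher, against 6% of all, and 0 lower, against 18.3%. Without either WT library at 30 min, 0 of 10 passed in WT cells, and without WT at 0 min replicate 2 only RACK1 did. The averaged count was 1 without either knockout library at 0 min or without WT at 30 min replicate 2, in each case RACK1. Without a trend in the prior variance 0 members passed in either, where 1 of all tested transcripts rose in WT cells and 65 averaged over genotypes.

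In direction the members leaned one way. The log2 change was positive for 8 of 10 in the knockout, against 41.3% of all tested transcripts, and for 8 of 10 in WT cells, against 31.0%. The members' median was 0.34 in the knockout, beside -0.12 over all tested transcripts, and 0.57 in WT cells, beside -0.26. In the knockout the members' median was 0.48 without replicate 1 at 30 min and 0.18 without replicate 2, and with quantile normalization 0.56. All libraries at 30 min lay above those at 0 min for 5 of 10 members in the knockout, against 18.6% of all tested transcripts. These were RACK1, HNRNPA1, PABPC1, EIF3H and EIF3L. The same held for 7 of 10 in WT cells, against 14% of all, namely RACK1, NACA, BTF3, NPM1, EIF3E, EIF3H and EIF3L. They lay below for 0 of 10 in the knockout, against 30.9% of all, and for 0 of 10 in WT cells, against 38.9%. The median of all tested transcripts in WT cells moved to -0.54 with TPM scaling and to 0.02 with median centring, and the members' median was 0.27 and 0.85 there, so the members' median lay above that of all transcripts under each scaling.

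**Figure D4:**
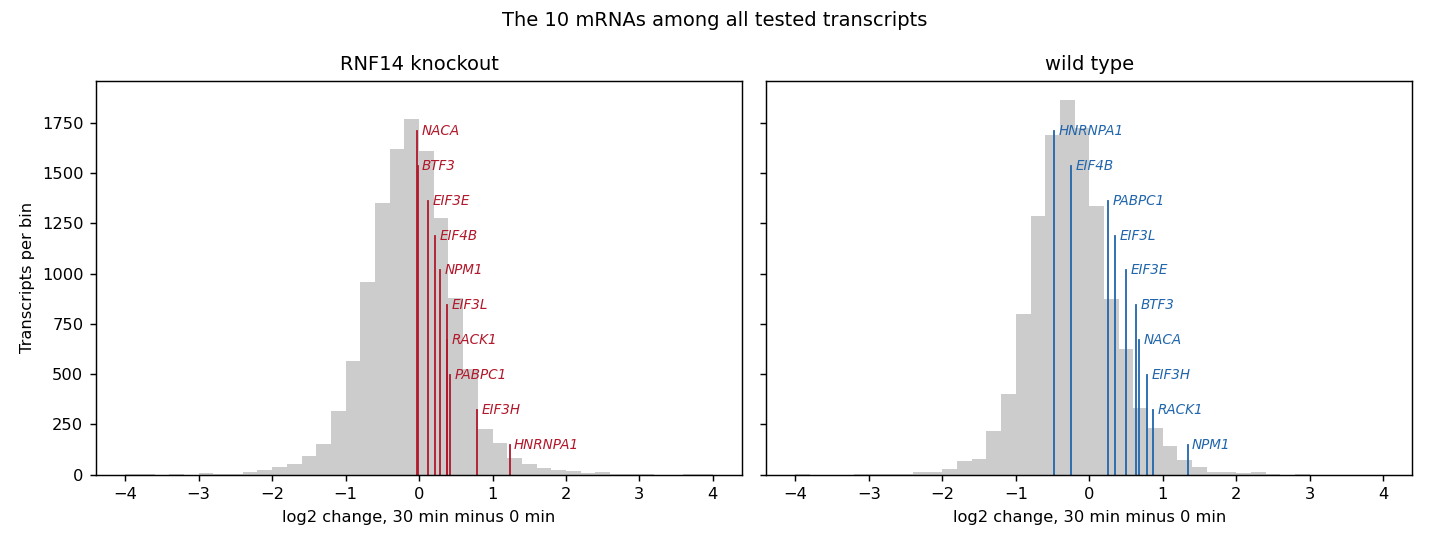
Number of tested transcripts (grey bars, bins of 0.2 on the log2 scale, values beyond 4 or -4 put in the outermost bins) by change at 30 min against 0 min, with the 10 mRNAs marked by lines. Line height only spaces the names. In WT cells NPM1, RACK1 and EIF3H stand furthest to the right, and in the knockout HNRNPA1 and EIF3H.

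Knockout and WT cells were also set against each other at each time. None of the members passed at 30 min or at 0 min (limma-trend, adjusted p under 0.05), where 0.0839% and 0.134% of all tested transcripts were higher in the knockout and 0.0419% and 0.0336% lower. The voom model called 0 members at 30 min, where 20 of 11920 tested transcripts were higher in the knockout and 1 lower. At 0 min it called 1 member, HNRNPA1, as lower, where 336 of all 11920 were higher and 493 lower. At an unadjusted p under 0.05, 1 member was lower in the knockout at 30 min, NPM1 (5.1% of all transcripts), and 0 were higher (5.76% of all). At 0 min, 4 members were higher in the knockout by that measure (6.13% of all transcripts) and 1 was lower (7.47% of all). The 4 were RACK1, NACA, BTF3 and NPM1, with log2 differences of 0.39 (SE 0.13), 0.41 (SE 0.18), 0.41 (SE 0.16) and 0.49 (SE 0.20), and limma adjusted p between 0.242 and 0.351. With quantile normalization RACK1, NACA and BTF3 had 0.17, 0.25 and 0.21, and BTF3 had 0.26 without knockout at 0 min replicate 2. For each of them both knockout libraries at 0 min lay above both WT libraries at 0 min, as for 21.5% of all tested transcripts. Both lay below for 2 members, HNRNPA1 and PABPC1, as for 29.4% of all.

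HNRNPA1 was the one lower in the knockout at 0 min, with 15.7 ± 0.324 RPKM in the knockout and 37.1 ± 15.4 RPKM in WT cells (SD, n = 2 each). The log2 difference was -1.13 (SE 0.34, limma adjusted p = 0.213), and with voom its adjusted p was 0.00349. Leaving out WT at 0 min replicate 1, the high library, gave -0.71 for HNRNPA1. PABPC1 also lay lower in both knockout libraries at 0 min, by -0.48 on the log2 scale (SE 0.24, limma adjusted p = 0.432). This was -0.17 without WT at 0 min replicate 1 and -0.78 without replicate 2.

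At 30 min the genotypes stood the other way for part of the group. The log2 difference of NPM1 was -0.56 (SE 0.20, limma adjusted p = 0.349) and that of HNRNPA1 0.58 (SE 0.34, limma adjusted p = 0.562). Without knockout at 30 min replicate 1 they were -0.28 for NPM1 and 0.18 for HNRNPA1, and without replicate 2 they were -0.84 and 0.99. NACA, BTF3, NPM1, PABPC1, EIF3E and EIF3L lay lower in both knockout libraries at 30 min than in both WT libraries, 6 of 10 members against 18.3% of all tested transcripts, and HNRNPA1 lay higher in both, as did 20.2% of all. NACA, BTF3 and NPM1 thus lay above WT at 0 min and below it at 30 min with no overlap, a pattern shown by 4.8% of all tested transcripts. HNRNPA1 showed the reverse, as did 6.11% of all.

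The difference between the 2 recoveries was tested as an interaction term, and 0 of 10 members passed (limma-trend, adjusted p under 0.05), against 0.00839% of all tested transcripts in the positive direction. The knockout's recovery minus that of WT cells was -1.05 for NPM1 (SE 0.28, limma adjusted p = 0.249), -0.70 for NACA (SE 0.25, limma adjusted p = 0.289) and -0.66 for BTF3 (SE 0.23, limma adjusted p = 0.271). It was -0.49 for RACK1 (SE 0.18, limma adjusted p = 0.298) and 1.72 for HNRNPA1 (SE 0.48, limma adjusted p = 0.250). Quantile normalization left -0.099 for RACK1 (adjusted p = 0.851), -0.28 for BTF3 and -0.44 for NACA. These 5 had an unadjusted p under 0.05, 4 of 10 members in the negative direction against 5.89% of all tested transcripts, and 1 of 10 in the positive one against 7.45%. The voom model called HNRNPA1 (adjusted p = 0.0142) and no other member, where 97 of 11920 tested transcripts were called positive and 28 negative. For the 5 initiation factors the 95% interval of the difference included 0, and for EIF3H it ran from -0.66 to 0.66, so unlike recoveries of that size were not shown to be absent.

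**Figure D5:**
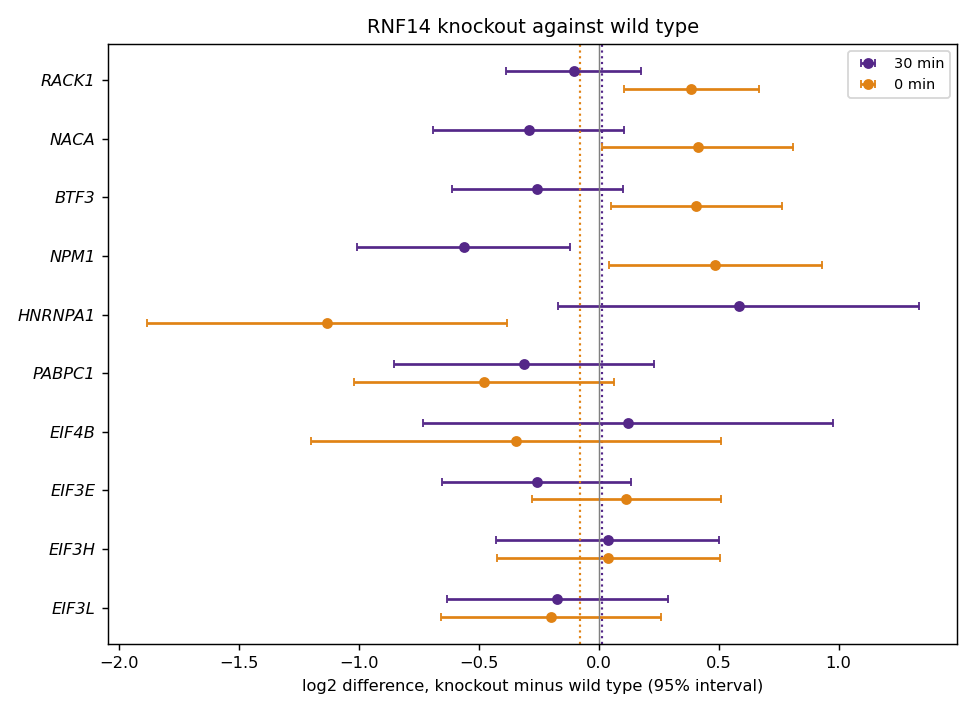
Fitted log2 difference between RNF14 knockout and WT cells for each mRNA, with 95% intervals from limma, at 30 min (upper point) and 0 min (lower point). Dotted lines mark the median of all tested transcripts, 0.02 at 30 min and -0.08 at 0 min. NACA, BTF3 and NPM1 lie right of 0 at 0 min and left of it at 30 min, HNRNPA1 the other way round, and no point passed an adjusted p of 0.05.

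Likeness to the group was measured by Pearson's r over the 8 libraries with the mean of the members' log2 values. The member closest to the mean of the other 9 was EIF3L (r = 0.92), followed by EIF3H (0.86), EIF3E (0.80), RACK1 (0.79), NPM1 (0.73) and PABPC1 (0.71). BTF3 (0.63) and NACA (0.50) followed less closely, and EIF4B (0.18) and HNRNPA1 (0.13) hardly at all. Among 6825 other transcripts averaging at least 10 RPKM, 5 were picked for the highest r with the mean of all 10 members. Their r lay between 0.96 and 0.98, with lengths from 1813 to 6399 nt, and their IDs are paired with no name here. How r was spread over the rest of the 6825 is not given here. All points share libraries and depth, so these values are descriptions.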

How the data were processed

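Ribosome footprints were prepared with cycloheximide and RNase I, and fragments of 15 to 70 nt were sequenced, per the labels' protocols. Cutadapt, STAR 2.7.10a and hg38 are named in the submitters' processing notes; how transcripts and counted regions were chosen is not given in the sources used here. RPKM values were deposited by the authors for 19580 transcripts in 8 libraries, with lengths. Reads were recovered as multiples of the smallest product of RPKM and length, which was whole for 100% of values (tolerance 0.05). An unexplained suffix marks the column of replicate 1 of the knockout at 30 min.

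Testing used limma-trend in limma 3.58.1 under R 4.3.3, on log2(RPKM + 1), two-sided, over 11920 transcripts whose RPKM averaged at least 1. It fitted the means of the 4 groups to the 8 libraries, which leaves 4 residual degrees of freedom. P-values were adjusted over all tested transcripts by Benjamini-Hochberg, with calls at an adjusted p below 0.05. Fold changes are on that log2 scale. RPKM is no count, so limma voom on recovered reads was an alternative; others were pseudocounts of 0.1 and 5, filters, a replicate block, TPM, quantile normalization, median centring, a prior without trend, a fit restricted to the groups compared, and removal of the most read transcript or of each library. A filter of 10 reads and the share without RACK1 were added after seeing the data. Intervals of read ratios are exact and, with PCR duplicates not marked, cover counting error only.

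The members and lists were chosen with earlier results of these data known. All 10 members are named. The 7 other lists, set by symbol (eIF3 subunits, other initiation factors, elongation factors, further TOP mRNAs, paralogues, ribosomal proteins, cell type markers), were not run, since 0 IDs matched a reference row with an Ensembl ID. Start sequences are from RefSeq tables (GRCh38.p14), matched by symbol, and are shown for 5 of 10 members. No start was listed for HNRNPA1 and EIF3L, and those of the members on chromosome 8 were left out. The fit was tested on simulated data. Python 3.11.15, numpy 2.4.6, pandas 2.3.3, scipy 1.17.1 and matplotlib 3.10.9 were used.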

Additional observations from a re-analysis of the deposited data

Results flagged for a closer look

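For 4 mRNAs the genotypes were ordered one way at 0 min and the other way at 30 min, with no overlap between libraries at either time. NPM1 had 155 ± 42.5 RPKM in the knockout at 30 min and 225 ± 5.53 RPKM in WT cells, and at 0 min 124 ± 2.30 RPKM in the knockout and 88.2 ± 3.59 RPKM in WT cells (SD, n = 2 each). The knockout's difference from WT cells at 30 min minus that at 0 min was -1.05 on the log2 scale for NPM1, -0.70 for NACA, -0.66 for BTF3 and 1.72 for HNRNPA1. Tested as an interaction, none of these passed (limma-trend, adjusted p of 0.249, 0.289, 0.271 and 0.250), and limma voom called HNRNPA1 alone. Each rests on 2 libraries a group. Of all tested transcripts 4.8% crossed in the direction of NPM1, NACA and BTF3 and 6.11% in that of HNRNPA1. No group held 4 or more libraries, so no single library was tested as an outlier.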

How the results depend on the processing

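Of 748 recomputed values for 36 gene-level results, 696 kept direction and side of the threshold, 18 no longer passed, 19 newly passed and 15 changed sign. The 36 cover every member for the recovery in each genotype. For the averaged recovery they hold only the 3 members that passed. For the genotype comparisons and the difference of recoveries they hold only chosen members, without EIF4B, so the counts do not describe all results. None of the 5 results that passed changed sign. In WT recovery the count of members that passed was 2, and it was 5 with median centring, 5 with voom, 5 with a filter of 10 reads, 4 with quantile normalization, 1 in a fit of the groups compared only and 0 without a trend in the prior. It ran from 0 to 3 when 1 library was left out. Averaged over genotypes the count of 3 became 0 without a trend and 1 to 3 with 1 library left out. In knockout recovery the count of 0 became 2 with voom and 0 to 1 with 1 library left out (HNRNPA1, without replicate 2 at 30 min). Voom also called 1 member for genotype at 0 min and 1 for the difference of recoveries, where limma-trend called 0. Over all tested transcripts voom called 829 and 125 there, and limma-trend 20 and 1. With limma-trend the counts for both genotype comparisons and the difference were 0 in every fit that left out 1 library.

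Among these 36 results, changes of sign were limited to values of at most 0.26 in size. Outside them larger values moved as well. The EIF4B difference of recoveries, 0.47, was no longer positive without WT at 0 min replicate 1. In that fit 1 member had a positive difference of recoveries, against 4 in the main fit. In knockout recovery NACA was 0.048 with median centring, 0.26 with quantile normalization and 0.017 without the most read transcript, and -0.19 to 0.15 with 1 library left out. BTF3 was 0.051, 0.19 and 0.021 under those settings and -0.16 to 0.13 with 1 library left out. In WT recovery EIF4B was 0.031 with median centring and 0.027 with quantile normalization, and -0.72 to 0.22 with 1 library left out. PABPC1 was -0.039 with TPM scaling and -0.049 to 0.56 with 1 library left out. With TPM scaling the WT recoveries of RACK1, NACA, BTF3, EIF3H and EIF3E were 0.57, 0.39, 0.34, 0.50 and 0.20. Knockout recovery of NPM1 was 0.18 with TPM scaling and 0.55 with quantile normalization, and that of EIF3E was 0.0096 and 0.37. The WT recovery of HNRNPA1 was -0.78 with TPM scaling and -0.20 with median centring. The cause of these moves was not tested.

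The members' share of reads was 0.346% in the knockout at 30 min, 0.269% in the knockout at 0 min and 0.383% in WT at 30 min and 0.235% in WT at 0 min when the most read transcript was left out of the total. As a share of summed RPKM it was 0.321% in the knockout at 30 min, 0.287% in the knockout at 0 min, 0.350% in WT at 30 min and 0.255% in WT at 0 min, a smaller step with time in both genotypes than in the share of reads. Without RACK1, in the same order, it was 0.185%, 0.152%, 0.209% and 0.141%. With the replicate number as a replicate block the counts were 0 in knockout recovery, 2 in WT recovery and 3 averaged, and the block changed no call among the members. Deviations of same-numbered libraries correlated between -0.08 and 0.07, so no shared deviation was seen. Whether same-numbered samples were prepared together cannot be told from these values. Depth limits EIF4B most, with 8 reads in its shallowest library.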
